A study of Mus musculus with 88 samples.

Results

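The small leucine-rich proteoglycans described here are 7 genes, namely Dcn (decorin), Lum (lumican), Fmod (fibromodulin), Prelp (prolargin), Bgn (biglycan), Aspn (asporin) and Ogn (osteoglycin). They were chosen by gene symbol from the 18069 genes that the array measures, and each is represented by the probe with the highest mean log2 intensity over all arrays. The study compared carbon ions with gamma rays in 4 tumours grown as transplants in the hind legs of mice of the strain C3H/HeNrs. NR-S1 and SCCVII are labelled as spontaneous squamous cell carcinomas, NFSa as a spontaneous fibrosarcoma and #8520 as a fibrosarcoma induced by radiation, and each is 1 transplantable tumour line. In the carbon arm each tumour was taken 6 h, 1 day and 3 days after 30 Gy of carbon ions, or untreated, and in the gamma arm at the same times after 30 Gy or 50 Gy of gamma rays, or untreated. This gave 44 groups of 2 arrays, 88 arrays in all. Whether both arrays of a group stem from different animals is not stated in the labels, and the p-values therefore measure the spread between arrays only. Ages and the sex of the hosts are not given in the labels used here.

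Small leucine-rich proteoglycans are secreted proteins of the extracellular matrix whose curved, leucine-rich core binds collagen and sets the width and spacing of collagen fibrils. Fibroblasts and related stromal cells make most of them. Decorin and biglycan carry chondroitin or dermatan sulfate chains, lumican and fibromodulin carry keratan sulfate, and asporin has an aspartate-rich stretch in place of a chain. Several of them also bind growth factors such as TGF-beta or act on cell surface receptors, decorin on Egfr and Met and biglycan on the Toll-like receptors Tlr2 and Tlr4. Dcn and Lum lie beside each other in the mouse genome, next to Kera. Aspn and Ogn share another cluster, with Omd between them.

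All values are intensities in arbitrary units on arrays scaled to a median of 1.02 to 1.07, or their log2. In whole tumours fewer cells of a type and less RNA per cell cannot be told apart. A probe is set only against itself, since different probes bind with different strength. A response is the log2 difference of an irradiated group from its untreated group, always within 1 tumour and 1 arm. The spread of all 44 groups was pooled in a limma model, and a gene was called where its Benjamini-Hochberg adjusted p over all genes tested, out of 13465 that passed the filter on dim probes, was under 0.05. Cdkn1a, a p53 target that marks irradiated cells, was called higher in each of the 36 tumour responses except that of NR-S1 on day 1 after 30 Gy of gamma rays, where the log2 difference was 0.31 (adjusted p = 0.272). On 8 arrays, those of SCCVII and #8520 on days 1 and 3 after 50 Gy of gamma rays, dim probes read brighter, with a 1st percentile of 0.297 to 0.378 against 0.0199 to 0.134 on the 80 others. Untreated SCCVII went against its label as a squamous carcinoma: Krt5, a keratin of basal epithelium, had a mean log2 intensity of -1.62 there and 8.38 in untreated NR-S1.

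All 7 genes passed the filter on dim probes, but Fmod and Prelp were near the low end of the scale in SCCVII and #8520. Fmod read 0.0442 to 0.721 over the 22 SCCVII arrays, with a median of 0.316, and 0.0626 to 1.74 over the 22 #8520 arrays, with a median of 0.465. Prelp read 0.0888 to 0.592 over 21 SCCVII arrays and 0.120 to 1.19 over 22 #8520 arrays. These levels lie at or below 0.378, the highest 1st percentile named above, on 14 of 22, 9 of 22, 16 of 21 and 15 of 22 arrays. Responses of both genes are therefore given for NR-S1 and NFSa alone, although the model's 4-tumour values enter the counts over all 7 genes.

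The untreated tumours differed in their proteoglycan genes, as the plot of untreated levels shows. Dcn, the decorin that binds along collagen fibrils, had a mean log2 intensity of 3.61 ± 0.42 in NR-S1, 4.99 ± 0.56 in SCCVII, 5.20 ± 0.13 in NFSa and 6.53 ± 0.19 in #8520 (SD, n = 4 untreated arrays of both arms). Its 6 tumour pairs were all called, and the step between SCCVII and NFSa was the smallest of them, with SCCVII minus NFSa at -0.21 (adjusted p = 0.0223). Bgn had 4.14 ± 0.35 in NR-S1, 6.21 ± 0.31 in SCCVII, 6.57 ± 0.39 in NFSa and 6.53 ± 0.14 in #8520. NR-S1 was thus the lowest tumour for both class I proteoglycans that carry sulfated chains.

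**Figure D1:**
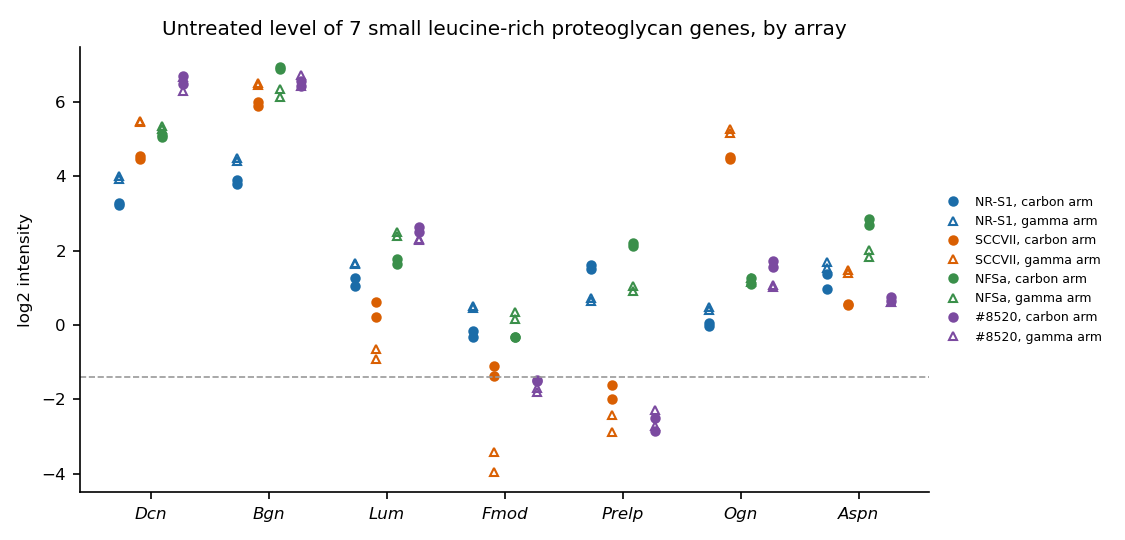
Untreated log2 intensity of the 7 genes on each of the 4 untreated arrays per tumour (colour), with the carbon arm as filled circles and the gamma arm as open triangles; the dashed line marks the intensity of 0.378. Levels may be compared within a gene only: Dcn is lowest in NR-S1 and highest in #8520, Ogn stands highest in SCCVII, and Fmod and Prelp lie near or below the line in SCCVII and #8520.

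Lum was lowest in SCCVII, at -0.18 ± 0.72, against 1.40 ± 0.30 in NR-S1, 2.07 ± 0.43 in NFSa and 2.44 ± 0.17 in #8520. Ogn was highest where Lum was lowest, with 4.85 ± 0.42 in SCCVII and 0.22 ± 0.25, 1.19 ± 0.07 and 1.34 ± 0.35 in NR-S1, NFSa and #8520. Aspn was highest in NFSa, at 2.35 ± 0.50, and lay at 1.38 ± 0.32 in NR-S1, 0.99 ± 0.51 in SCCVII and 0.66 ± 0.07 in #8520. Over the 6 pairs of tumours 39 of 42 differences of the 7 genes were called, where 53.9% to 74.3% of all genes were called in a pair. Of the 7 genes 1 was higher and 5 were lower in the untreated tumours labelled carcinoma than in those labelled fibrosarcoma, where 40.6% of all genes were called higher and 33.2% lower (73.8% together).

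Part of the spread between untreated arrays lay between the arms. Dcn was higher in the gamma arm than in the carbon arm by 0.72 in NR-S1 and by 0.96 in SCCVII, and Lum in SCCVII was lower there, at -1.19, all called by the same model. Averaged over the 4 tumours 1 gene was called higher and 2 lower in the gamma arm, against 26.6% of all genes called higher and 33.7% lower (60.2% together). Of 23 skeletal muscle markers 1 was higher and 22 lower in the gamma arm in that average, with a median of -0.75. SCCVII carried this, with 0 higher and 22 lower and a median of -3.66. NFSa went the other way, with 16 higher and 4 lower and a median of 0.55. The median was 0.11 in NR-S1 and -0.04 in #8520. Each response is taken within its own arm, and the difference between the beams is also given with the untreated arrays of both arms pooled.

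After 30 Gy of carbon ions Dcn and Lum rose in the 4 tumours together. Averaged over the tumours Dcn was higher by 0.36 log2 at 6 h (adjusted p = 7.88e-07), by 1.02 on day 1 (2.03-fold, adjusted p = 1.84e-21) and by 1.75 on day 3 (3.37-fold, 95% interval of the log2 difference 1.64 to 1.87, adjusted p = 1.83e-32), with an SE of 0.0575. Lum was higher by 0.89 at 6 h, 1.70 on day 1 (3.25-fold) and 1.46 on day 3, with an SE of 0.0723 (adjusted p = 2.78e-15, 1.43e-26 and 1.33e-24). Of the 7 genes 2 were called higher and 1 lower at 6 h, 5 higher and 0 lower on day 1, and 4 higher and 0 lower on day 3. Of all genes 21.0% were called higher and 19.5% lower at 6 h (40.5% together), 25.5% and 16.6% on day 1 (42.1%), and 26.4% and 41.8% on day 3 (68.2%). The median of the 7 log2 differences was 0.04, 0.36 and 0.51 at the 3 times, and that of all genes tested -0.01, 0.01 and -0.08. With each tumour taken as 1 replicate, so that the spread is that between tumours, no member passed at 6 h, Lum alone passed on day 1, and Dcn and Lum passed on day 3, where 2.90%, 0.179% and 12.7% of all genes did.

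In NR-S1 Dcn read 9.27 and 9.73 on the untreated arrays of the carbon arm, 22.9 and 24.5 at 6 h, 23.0 and 23.2 on day 1, and 54.6 and 48.5 on day 3. Every irradiated array stood above both untreated ones. The responses were 1.32, 1.28 and 2.44 log2 (SE 0.115), and the last, 5.42-fold, was the largest Dcn response of the study (adjusted p = 3.71e-25). In the other tumours the rise began later. SCCVII read 78.7 and 91.1 on day 3, against 22.0 and 23.5 untreated (1.90 log2, 3.72-fold). NFSa read 136 and 90.5, against 34.7 and 33.3 (1.71 log2, 3.27-fold). #8520 reached 228 and 232 on day 1 and 186 and 191 on day 3, against 88.8 and 104 untreated, which is a response of 1.26 and 0.97. In those 3 tumours no 6 h response of Dcn was called, with values of 0.18, -0.16 and 0.10. SCCVII and NFSa were called lower at 6 h, at -0.31 and -0.27, with the untreated arrays of both arms pooled. On days 1 and 3 the irradiated arrays did not overlap the untreated arrays of the carbon arm in any tumour. In SCCVII the untreated mean was 4.51 log2 in the carbon arm and 5.47 in the gamma arm. The share of all genes whose arrays were separated in this way was not counted, here or for the genes below. The response differed between the tumours at all 3 times (moderated F test, adjusted p = 3.4e-10, 0.00296 and 8.92e-10), as it did for 45.0%, 58.3% and 61.9% of all genes.

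**Figure D2:**
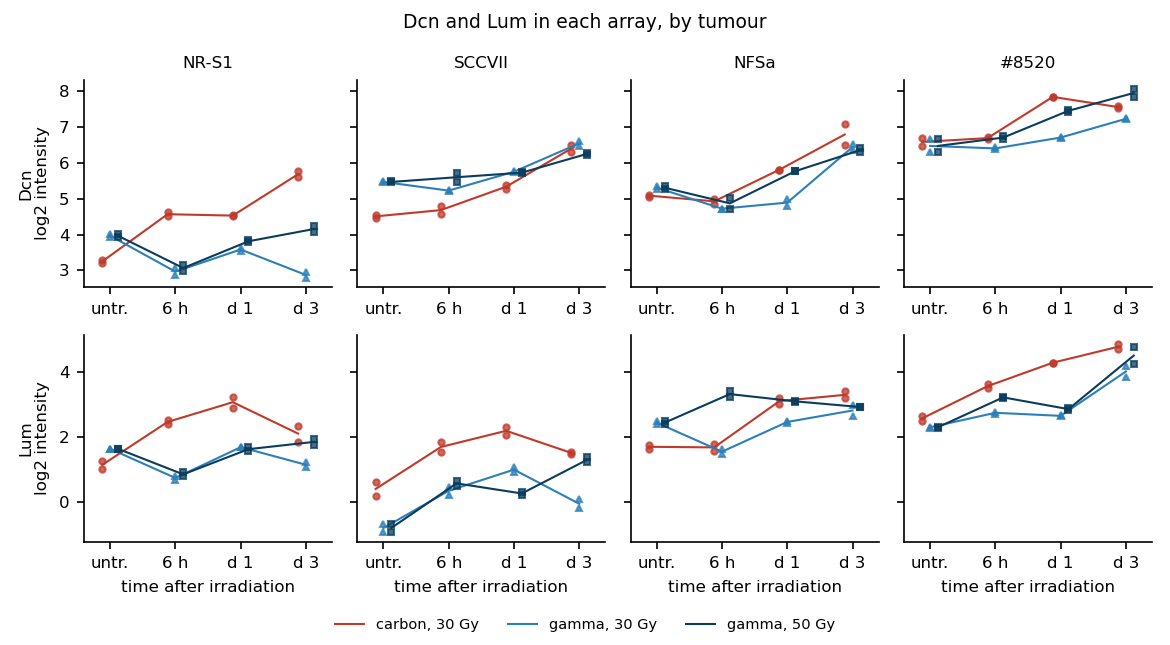
Dcn (top) and Lum (bottom) log2 intensity on each array, by tumour, against time after irradiation, for 30 Gy of carbon ions, 30 Gy and 50 Gy of gamma rays; points are arrays, lines join group means, and "untr." marks the untreated arrays of that arm. Carbon-ion day 3 arrays of Dcn lie above their untreated arrays in each tumour, while in NR-S1 the Dcn arrays after 30 Gy of gamma rays lie below theirs.

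Lum, a keratan sulfate proteoglycan known for its role in the transparency of the cornea, was called higher at 6 h in 2 tumours in which Dcn was not. In SCCVII it read 2.92 and 3.61 at 6 h, against 1.15 and 1.54 untreated (1.29 log2), and in #8520 11.3 and 12.3, against 6.25 and 5.68 (0.98 log2). On day 1 the 4 tumours were alike in size of response, at 1.92, 1.78, 1.40 and 1.70 in NR-S1, SCCVII, NFSa and #8520 (SE 0.145), and the F test between tumours did not pass at that time (adjusted p = 0.127). Irradiated arrays on day 1 were all above the untreated arrays of their tumour, for example 9.18 and 8.05 against 3.14 and 3.39 in NFSa. From day 1 to day 3 the tumours parted. Lum read 28.8 and 25.7 in #8520 on day 3, a response of 2.19 (4.56-fold), and 5.10 and 3.64 in NR-S1, a response of 0.96. The mean over the tumours was lower on day 3 than on day 1 by 0.24 log2 (day 3 minus day 1 -0.24, adjusted p = 0.00326), and without NR-S1 this difference was 0.00. Dcn in contrast was higher on day 3 than on day 1, by 0.73. Of the 7 genes 6 were called higher and 0 lower on day 1 against 6 h, where 20.0% of all genes were higher and 11.8% lower (31.8% together). On day 3 against day 1 there were 3 higher and 3 lower, where 19.7% and 45.3% of all genes were (65.0%), and on day 3 against 6 h 4 higher and 0 lower, where 21.5% and 41.1% were (62.6%).

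Averaged over the tumours, the responses of both genes were lower after gamma rays at the same dose than after carbon ions. After 30 Gy Dcn was lower at 6 h (-0.48, adjusted p = 1.22e-09), was not called on day 1 (-0.07, adjusted p = 0.339) and was higher on day 3 (0.47, adjusted p = 7.41e-10). Lum stood at -0.05 at 6 h (adjusted p = 0.636) and was higher on days 1 and 3, by 0.55 and 0.58. Of the 7 genes 0, 2 and 4 were called higher and 4, 2 and 1 lower at the 3 times, while 37.7%, 42.8% and 54.1% of all genes were called, 19.3%, 21.2% and 23.1% higher and 18.4%, 21.7% and 30.9% lower. The tumours went different ways. In NR-S1 Dcn read 7.70 and 6.93 on day 3 after 30 Gy, against 16.1 and 15.1 untreated, a response of -1.10 (0.468-fold). In SCCVII it read 97.9 and 89.4, against 43.9 and 44.7, a response of 1.08, and in NFSa and #8520 the responses were 1.14 and 0.76. The arrays of day 3 did not overlap the untreated ones in any of the 4 tumours, below them in NR-S1 and above them elsewhere, and the share of all genes that did so was not counted.

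Averaged over the tumours, the carbon-ion response was higher than the gamma-ray response at 30 Gy for Dcn and Lum at each time. For Dcn the difference, carbon minus gamma, was 0.84 at 6 h, 1.09 on day 1 and 1.29 on day 3 (SE 0.0813, adjusted p = 9.47e-12, 3.18e-16 and 4.1e-19). For Lum it was 0.94, 1.15 and 0.88 (SE 0.102, adjusted p = 2.75e-10, 2.04e-13 and 5.48e-10). Ogn followed with 0.44, 0.37 and 0.55 (SE 0.113, adjusted p = 0.00407, 0.0113 and 0.000115). Aspn was higher at 6 h alone (0.48, adjusted p = 0.00992), and Bgn on day 1 alone (0.26, adjusted p = 0.0334). With the untreated arrays of both arms pooled, Bgn on day 1 was not called (0.12, adjusted p = 0.0966), and Aspn was called on day 1 as well as at 6 h (0.24, adjusted p = 0.0243). Over the 7 genes 4, 5 and 3 were called higher at the 3 times and 0 lower, while of all genes 9.28%, 17.1% and 15.8% were called higher and 6.62%, 8.03% and 20.2% lower (15.9%, 25.1% and 36% together). The median difference of the 7 was 0.44, 0.37 and 0.22, beside -0.01, 0.02 and -0.06 over all genes. With each tumour as 1 replicate none of the 7 passed at any time, and neither did any other gene in limma. At an unadjusted p under 0.05 there were 3, 3 and 1 of the 7, and 717, 867 and 1520 of all genes.

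**Figure D3:**
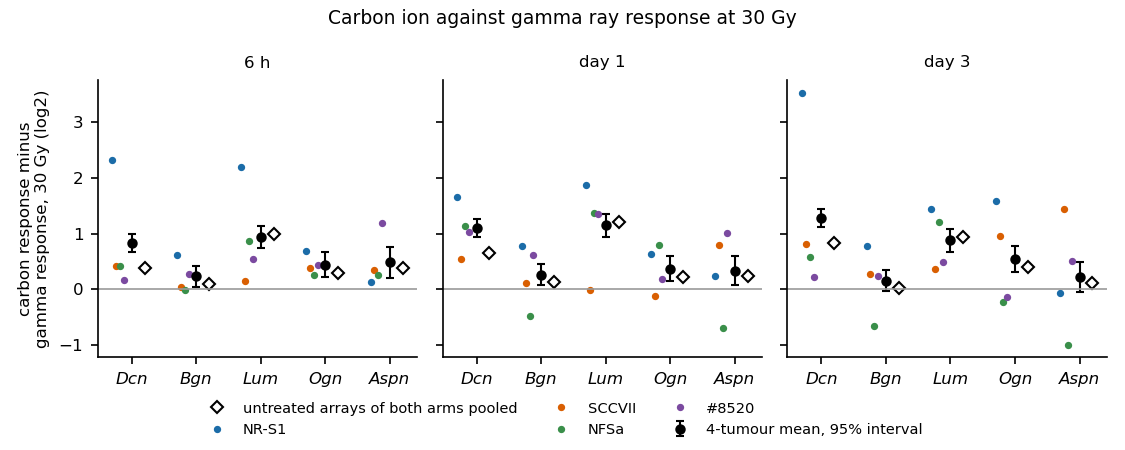
Carbon-ion response minus gamma-ray response at 30 Gy (log2) for 5 of the genes at 6 h, day 1 and day 3; small points are tumours, black points the 4-tumour mean with its 95% interval, and open diamonds the mean with the untreated arrays of both arms pooled. The NR-S1 points of Dcn, at 2.32, 1.67 and 3.53, stand above those of the other tumours at each time.

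NR-S1 carried much of the difference between the beams. Its Dcn values were 2.32, 1.67 and 3.53 log2 at the 3 times, the last 11.6-fold. On day 3 SCCVII, NFSa and #8520 had 0.82, 0.57 and 0.22, and the #8520 value was not called (adjusted p = 0.481). Without NR-S1 the mean Dcn difference was 0.34, 0.90 and 0.54, and that of Lum 0.52, 0.91 and 0.69, all still called. For Ogn the 3 values without NR-S1 were 0.36, 0.29 and 0.20 (adjusted p = 0.0515, 0.109 and 0.281). The Lum difference also varied: on day 1 it was 1.87, 1.38 and 1.35 in NR-S1, NFSa and #8520, and -0.01 in SCCVII (adjusted p = 0.989), where Lum rose after both beams. With the untreated arrays of both arms pooled the Dcn difference fell to 0.39, 0.65 and 0.84, and that of Lum was 1.00, 1.21 and 0.94. In SCCVII the direction of the Dcn difference turned, to -0.54, -0.42 and -0.14, the first pair called and the last not (adjusted p = 0.317), and the Lum difference there was 1.34, 1.19 and 1.56, all called. In NR-S1 the Dcn difference was 1.60, 0.95 and 2.82. Pooled in the same way, Dcn in NR-S1 was still higher after carbon ions, by 0.96, 0.92 and 2.08, and after 30 Gy of gamma rays stood at -0.64, -0.03 (adjusted p = 0.857) and -0.74.

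Markers of other cells also differed between the beams in NR-S1. Of 23 skeletal muscle markers tested there, 21 were called higher and 0 lower on day 3 after carbon ions, with a median of 1.25, where Dcn rose by 2.44. On day 3 after 30 Gy of gamma rays 0 were higher and 21 lower, with a median of -0.95, where Dcn had -1.10. The summed intensity of 26 muscle markers was 2091 to 2250 on day 3 after carbon ions, against 920 to 959 untreated, and 533 to 553 on day 3 after 30 Gy of gamma rays, against 1068 to 1076 untreated. At 6 h in NR-S1 18 muscle markers were higher and 4 lower after carbon ions, with a median of 0.81, where Dcn rose by 1.32. After 30 Gy of gamma rays 0 were higher and 23 lower at 6 h, with a median of -1.17. In carbon minus gamma at 6 h 19 were higher and 1 lower, with a median of 1.85, where Dcn had 2.32. Not all NR-S1 groups paired in this way. On day 1 after carbon ions 4 muscle markers were higher and 6 lower, with a median of 0.06, where Dcn rose by 1.28. On day 3 after 50 Gy 0 were higher and 19 lower, with a median of -0.55, where Dcn had 0.19. In carbon minus gamma on day 3 in NR-S1, 22 of 23 muscle markers were higher (median 2.32), 13 of 13 macrophage markers (1.69), 5 of 5 adipocyte markers (2.27), 11 of 15 endothelial markers (0.66) and 9 of 16 fibroblast markers (0.47), while 0 markers of the first 4 lists and 3 of the fibroblast list were lower. In the carbon-ion response itself 12 of 13 macrophage markers were higher and 0 lower, with a median of 2.17. In the other tumours the muscle median on day 3 after carbon ions was -0.47 in SCCVII, where Dcn rose by 1.90, 0.24 in NFSa, where Dcn rose by 1.71, and -0.18 in #8520, where Dcn rose by 0.97. Averaged over the tumours 18 of 23 muscle markers were called higher in carbon minus gamma on day 3 and 3 lower, with a median of 0.64. At 6 h 0 were higher and 18 lower, with a median of -0.70, when the Dcn difference was 0.84. That mean joins opposite values: in NR-S1, SCCVII, NFSa and #8520 the muscle median at 6 h was 1.85, -3.04, -0.11 and -0.70. The Dcn difference there was 2.32, 0.42, 0.43 and 0.17. The part of these cells in the Dcn response was not tested.

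Averaged over the tumours, Dcn was higher after 50 Gy of gamma rays than after 30 Gy. After 50 Gy Dcn was lower at 6 h (-0.24) and higher on days 1 and 3, by 0.39 and 0.88. The fall at 6 h was not called with pooled untreated arrays (-0.02, adjusted p = 0.738), and then the value of day 1 was 0.61. The 50 Gy groups exceeded the 30 Gy groups by 0.23, 0.46 and 0.41 (adjusted p of the first 0.00142). On day 3 #8520 read 231 and 266 at 50 Gy and 152 and 149 at 30 Gy, above the untreated 78.6 and 101 in both cases. NR-S1 read 16.9 and 18.7 at 50 Gy and 7.70 and 6.93 at 30 Gy, so that its fall was seen at the lower dose, and the 50 Gy response of 0.19 was not called (adjusted p = 0.206), but was 0.55 and called with pooled untreated arrays. SCCVII read lower at the higher dose, with 78.1 and 74.6 at 50 Gy and 97.9 and 89.4 at 30 Gy. For Lum 50 Gy minus 30 Gy was 0.64 at 6 h, 0.01 on day 1 (adjusted p = 0.899) and 0.66 on day 3. In NFSa, where Lum read 10.6 and 9.36 at 6 h after 50 Gy and 3.10 and 2.78 after 30 Gy, the untreated arrays lay between them, at 5.27 and 5.60. Of the 7 genes 2, 5 and 6 were called higher and 3, 1 and 1 lower after 50 Gy. Of all genes 49.7%, 68.2% and 73.4% were called there, 22.8%, 23.1% and 28.7% higher and 26.9%, 45.1% and 44.7% lower. Set against 30 Gy, 4, 3 and 5 of the 7 were higher at 50 Gy and 0 lower, while 27.1%, 62.8% and 59.5% of all genes were called, 10.9%, 19.6% and 23.9% higher and 16.2%, 43.1% and 35.5% lower. The 8 arrays whose dim probes read brighter are among the 50 Gy arrays of days 1 and 3, and these counts include Fmod and Prelp. After quantile normalization 50 Gy minus 30 Gy of Prelp on days 1 and 3 was -0.62 and -0.26, both called, against 0.66 and 0.72 without it. For Fmod on day 3 it was -0.74 without those 8 arrays and 0.37 with them.

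Taken against the untreated arrays of its own arm, Fmod, a keratan sulfate proteoglycan that guides collagen cross-linking, was not called in any of the 6 carbon-ion responses of NR-S1 and NFSa, whose values were 0.31, 0.38 and -0.12 in NR-S1 and -0.25, 0.32 and -0.16 in NFSa (SE 0.196). It fell after gamma rays. In NFSa it read 0.494 and 0.501 at 6 h, 0.397 and 0.555 on day 1 and 0.896 and 0.794 on day 3 after 30 Gy, all below the untreated 1.26 and 1.12, for responses of -1.26, -1.34 and -0.50. After 50 Gy it read 0.499 and 0.430 on day 3 (-1.36, 0.389-fold). NR-S1 read 0.686 and 0.654 on day 3 after 50 Gy, against 1.38 and 1.42 untreated (-1.06, adjusted p = 1.36e-05). Over both tumours 4 of 6 responses to 30 Gy and 5 of 6 to 50 Gy were called lower and 0 higher. Calls in single tumours were common among all genes as well, and their share in either direction is given with the counts per gene below. Carbon minus gamma at 30 Gy was called higher at 6 h and on day 1, by 0.86 and 0.83 in NR-S1 and by 1.01 and 1.66 in NFSa. On day 3 it was 0.33 and 0.34, and neither value was called. Untreated Fmod was higher in the gamma arm than in the carbon arm by 0.73 in NR-S1 and 0.57 in NFSa, both called. With the untreated arrays of both arms pooled, carbon minus gamma at 6 h and on day 1 was 0.13 and 0.10 in NR-S1 and 0.43 and 1.09 in NFSa, and the last alone was called (adjusted p = 9.19e-06). The responses called lower were then 3 of 6 after carbon ions, 2 of 6 after 30 Gy and 2 of 6 after 50 Gy of gamma rays.

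**Figure D4:**
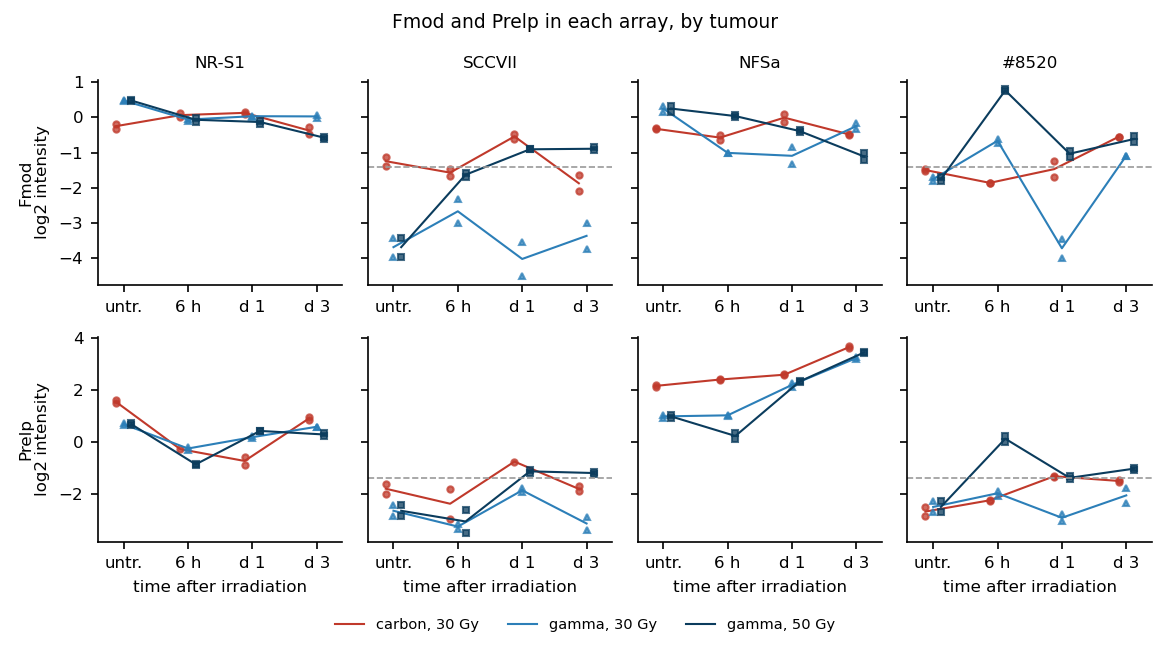
Fmod (top) and Prelp (bottom) log2 intensity on each array, by tumour, against time after irradiation; points are arrays, lines join group means, and the dashed line in the SCCVII and #8520 panels marks the intensity of 0.378, around and below which no response is given. In NFSa the Prelp arrays stand highest on day 3 after each irradiation, and in NR-S1 those of carbon ions are lowest on day 1.

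Prelp, which binds collagen and the heparan sulfate of basement membranes, rose on day 3 in NFSa and fell after carbon ions in NR-S1. In NFSa it read 13.0 and 12.2 on day 3 after carbon ions, against 4.61 and 4.37 untreated (1.49 log2, 2.81-fold), 9.70 and 9.22 on day 3 after 30 Gy of gamma rays and 11.0 and 10.9 after 50 Gy, against 2.08 and 1.90 untreated (2.25 and 2.47 log2, 4.77-fold and 5.53-fold). All irradiated arrays of day 3 lay above the untreated ones. In NR-S1 Prelp read 0.541 and 0.671 on day 1 after carbon ions, against 2.81 and 3.06 untreated, a response of -2.28 (0.205-fold, adjusted p = 3.84e-13). On day 3 it read 1.96 and 1.80 (-0.64, and -0.21 and not called with pooled untreated arrays). At 6 h 1 of the 2 NR-S1 arrays had no value for Prelp and the other read 0.826 (-1.83, SE 0.249). At 6 h after 50 Gy of gamma rays Prelp was called lower in both tumours, at -1.55 in NR-S1 and -0.76 in NFSa. Untreated Prelp was lower in the gamma arm than in the carbon arm, by 0.87 in NR-S1 (gamma minus carbon -0.87) and 1.18 in NFSa (-1.18). Carbon minus gamma was -1.78 in NR-S1 on day 1 (adjusted p = 9.24e-06), and -0.92 with the untreated arrays of both arms pooled, also called (adjusted p = 0.000149). In NFSa it was -0.78 and -0.76 on days 1 and 3 (adjusted p = 0.0483 and 0.0497), and with pooled untreated arrays the direction turned, to 0.39 and 0.41, neither called (adjusted p = 0.113 and 0.0903).

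Bgn, a ligand of Toll-like receptors when it is released from the matrix, changed little on average. Its 4-tumour carbon-ion responses were 0.04, 0.29 and 0.08 (SE 0.0666), and that of day 1 was called (adjusted p = 0.000296). NR-S1 was higher at each time, with 19.1 and 22.3 at 6 h, 23.8 and 30.3 on day 1 and 17.8 and 20.7 on day 3, all above the untreated 13.9 and 14.8, for responses of 0.53, 0.91 and 0.42. Pooled untreated arrays left the day 1 value alone called in NR-S1, with 0.23, 0.60 and 0.12 at the 3 times. NFSa was lower on day 3 (-0.37), and carbon minus gamma was -0.67 there (adjusted p = 0.00665). Untreated Bgn in NFSa was lower in the gamma arm than in the carbon arm, at -0.67, and with pooled untreated arrays the response was -0.04 and the difference 0.00090, neither called. After 50 Gy of gamma rays Bgn in #8520 read 62.9 and 50.7 at 6 h, below the untreated 86.3 and 105, and 143 and 170 on day 1 and 162 and 184 on day 3, above them. There 50 Gy minus 30 Gy was 0.99 on day 1 and 1.09 on day 3. Without the 8 arrays whose dim probes read brighter the 4-tumour Bgn responses to 50 Gy on days 1 and 3 were -0.09 and -0.01, against 0.17 and 0.23 with them.

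Aspn and Ogn are neighbours in the genome, and both rose on day 3 in #8520 after each irradiation. At 6 h after 50 Gy of gamma rays they went opposite ways there, with Ogn at 0.51 and Aspn at -1.11. Over the 44 group means the Pearson r of Ogn and Aspn was -0.332. Bgn was not called higher in #8520 on day 3 after 30 Gy of either beam, but was after 50 Gy of gamma rays, by 0.86. The promoters of Aspn and Ogn are shown for their shared rise on day 3 in #8520, beside that of Bgn. They are the 250 bases before the RefSeq gene start in build GRCm38.p6, at chr13:49544193-49544442 for Aspn, chr13:49607765-49608014 for Ogn and chrX:73483351-73483600 for Bgn, all on the plus strand, written 5′ to 3′. Capitals mark matches, on either strand, to 4 motifs, the box TATAAA, the AP-1 motif TGANTCA, the TEAD motif GGAATG and the Sp1 motif GGGCGG.
Aspn: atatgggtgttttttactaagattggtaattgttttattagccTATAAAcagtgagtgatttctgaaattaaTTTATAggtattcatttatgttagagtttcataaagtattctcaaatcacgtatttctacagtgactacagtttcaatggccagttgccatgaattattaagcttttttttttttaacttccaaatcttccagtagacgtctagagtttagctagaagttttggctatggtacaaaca
Ogn: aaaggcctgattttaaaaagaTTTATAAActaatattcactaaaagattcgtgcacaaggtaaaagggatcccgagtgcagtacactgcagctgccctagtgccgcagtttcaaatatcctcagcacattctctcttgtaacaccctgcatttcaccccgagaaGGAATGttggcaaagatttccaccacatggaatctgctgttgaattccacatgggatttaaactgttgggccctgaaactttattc
Bgn: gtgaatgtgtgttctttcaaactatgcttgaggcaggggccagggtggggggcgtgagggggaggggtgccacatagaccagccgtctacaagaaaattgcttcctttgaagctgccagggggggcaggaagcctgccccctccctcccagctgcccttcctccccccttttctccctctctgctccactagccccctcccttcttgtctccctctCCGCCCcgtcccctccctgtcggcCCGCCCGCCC
Aspn holds 2 matches to TATAAA, 207 and 178 bases before the start. Ogn holds 2 that overlap each other on opposite strands, 229 and 227 bases before the start, and 1 match to GGAATG 86 bases before it. Bgn holds no TATAAA match in this window and 3 matches to GGGCGG on the minus strand, 34, 10 and 6 bases before the start, the last 2 overlapping. Of 32851 RefSeq promoters of the same length 12.4% hold TATAAA, 6.75% TGANTCA, 12.6% GGAATG and 32.7% GGGCGG. A promoter was matched for 5 of the 7 genes, also Fmod and Prelp, which hold none of the 4 motifs in it, and not for Dcn and Lum. These are matches of letters and say nothing of whether a factor binds.

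Aspn, which binds collagen and TGF-beta, read 5.09 and 5.51 in #8520 on day 3 after carbon ions, against 1.69 and 1.57 untreated, a response of 1.70 (3.25-fold, SE 0.187). On day 3 it read 3.27 and 3.81 after 30 Gy of gamma rays and 3.76 and 5.20 after 50 Gy, against 1.54 and 1.54 untreated (1.20 and 1.52 log2). All 6 irradiated arrays were above the untreated ones. At 6 h the beams were on opposite sides in this tumour, at 0.53 after carbon ions and at -0.66 and -1.11 after 30 and 50 Gy of gamma rays, all called. In the other tumours Aspn was lower on day 3 in several responses. SCCVII read 1.02 and 0.806 on day 3 after 30 Gy of gamma rays and 1.06 and 0.768 after 50 Gy, against 2.77 and 2.63 untreated (-1.57 and -1.58 log2, 0.337-fold and 0.335-fold). NFSa read 3.67 and 3.91 on day 3 after carbon ions, against 6.44 and 7.24 (-0.85), and NR-S1 had -0.80. In NFSa carbon minus gamma on day 3 was called lower (95% interval of the log2 difference -1.53 to -0.47, adjusted p = 0.00368), where untreated Aspn was lower in the gamma arm than in the carbon arm, at -0.85, and with pooled untreated arrays it was -0.15 and not called (adjusted p = 0.545). The 4-tumour mean on day 3 after carbon ions was -0.02 (adjusted p = 0.862) and averages these opposite values, and after gamma rays it was -0.24 at 30 Gy and -0.28 at 50 Gy. At 6 h after carbon ions 1 NFSa array had no Aspn value, so that the -0.63 there rests on 1 irradiated array, and with pooled untreated arrays it was -0.20 and not called.

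**Figure D5:**
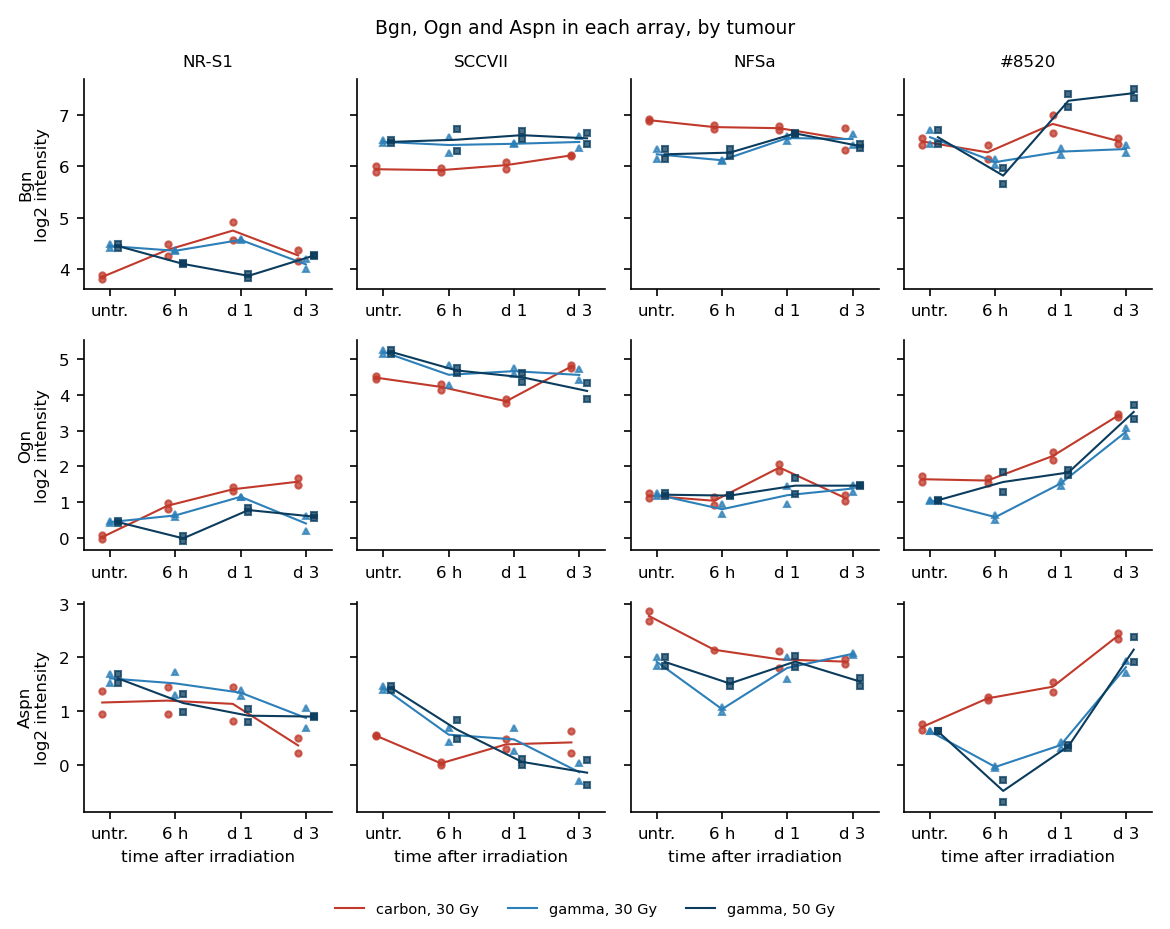
Bgn, Ogn and Aspn log2 intensity on each array, by tumour, against time after irradiation; points are arrays and lines join group means. In #8520 the Ogn and Aspn arrays of day 3 lie above the untreated arrays after each irradiation, while in SCCVII the Aspn arrays after gamma rays lie below theirs.

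Ogn, a class III member found in bone and other connective tissue, rose further in #8520. It read 11.1 and 10.3 on day 3 after carbon ions, against 3.30 and 2.94 untreated (1.79 log2, 3.45-fold, SE 0.160). It read 8.47 and 7.22 after 30 Gy of gamma rays and 10.1 and 13.1 after 50 Gy, against 2.09 and 2.04 untreated (1.92 and 2.48 log2, 3.79-fold and 5.58-fold, adjusted p of the last 3.1e-19). The irradiated arrays stood above the untreated ones throughout. Ogn also rose in NR-S1 on day 3 after carbon ions, to 3.16 and 2.78, against 1.04 and 0.977 untreated (1.56 log2), and was not called on day 3 after 30 or 50 Gy of gamma rays, at -0.04 and 0.15. SCCVII, where Ogn was highest before irradiation, went the other way after gamma rays: 21.3 and 26.4 on day 3 after 30 Gy and 14.8 and 20.3 after 50 Gy, against 35.7 and 38.5 untreated (-0.65 and -1.10 log2). With pooled untreated arrays the first of these was not called (-0.29, adjusted p = 0.0984). Averaged over the tumours Ogn was higher by 0.53 on day 1 and 0.90 on day 3 after carbon ions (SE 0.0802, adjusted p = 2.35e-07 and 1.76e-14). Without #8520 its mean day 3 responses to 30 and 50 Gy of gamma rays were -0.17 and -0.23, against 0.35 and 0.45 with it.

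In #8520 on day 3, with Fmod and Prelp left out for their low levels there, 4 of 5 genes were called higher and 0 lower after carbon ions, 4 and 0 after 30 Gy of gamma rays, and 5 and 0 after 50 Gy. Of all genes 19.1%, 19.8% and 27.8% were called higher there, and 50.3%, 49.8% and 67.7% in either direction. Over the 36 single-tumour responses 157 of 252 values of the 7 genes were called, and between 14.7% and 69.8% of all genes were. Per gene, over the 12 responses to each irradiation, Dcn was called higher in 9 and lower in 0 after carbon ions, 3 and 5 after 30 Gy of gamma rays, and 6 and 2 after 50 Gy. Lum had 11 and 0, 7 and 3, and 9 and 1. Aspn had 3 and 5, 1 and 6, and 1 and 6, with more falls than rises after each irradiation. Bgn had 4 and 1, 0 and 2, and 3 and 3, and Ogn 6 and 1, 3 and 4, and 3 and 4. With pooled untreated arrays Dcn had 9 and 2, 4 and 4, and 8 and 2, and Lum 11 and 1, 6 and 2, and 10 and 1. Aspn then had 3 and 5, 1 and 7, and 1 and 8. Bgn then had 2 and 1, 1 and 2, and 5 and 3, and Ogn 6 and 2, 3 and 2, and 4 and 2. Kera, the keratocan gene beside Lum, was higher on day 3 in #8520 by 3.27 log2 after carbon ions, 2.90 after 30 Gy and 2.87 after 50 Gy of gamma rays, while Omd, between Aspn and Ogn, had 0.09, 0.24 and 0.67.

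The remaining proteoglycans of the family did not share one direction. Of 12 listed genes 7 were tested, and averaged over the tumours 2 were called higher and 4 lower on day 3 after carbon ions, with Kera at 1.15, Podn, a class V member, at 0.53 and Optc, of the eye, at -0.43. Fibrillar collagens and the enzymes that cross-link them had 11 of 18 higher and 1 lower on day 1, with a median of 0.23, led by Col11a1 at 1.11, Col1a1 at 0.55 and Loxl3 at 0.44, and 6 higher and 7 lower on day 3. Among enzymes that build the sugar chains 6 of 22 were higher and 6 lower on day 3, for example Chpf2 at 0.50. Among proteases that cut these proteoglycans or procollagen 11 of 20 were higher and 6 lower, with Gzmb, granzyme B of cytotoxic lymphocytes, at 2.22, the neutrophil collagenase Mmp8 at 1.66 and Adamts5 at 1.09. Receptors and growth factors bound by the family had 8 of 19 higher and 7 lower, with P2rx4 at 1.25 and Tlr2 at 1.09, and Met, a receptor bound by decorin, at -0.98.

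Averaged over the tumours, markers of fibroblasts, the usual makers of these genes, had medians below those of the 7 genes on days 1 and 3 after carbon ions. After 30 Gy of gamma rays the fibroblast median was -0.06, 0.12 and 0.04 at 6 h, day 1 and day 3. That of the 7 genes was then -0.24, 0.03 and 0.35. The median of the 7 genes after carbon ions was 0.36 on day 1 and 0.51 on day 3. Of 16 fibroblast markers tested, 11 were higher and 0 lower on day 1 after carbon ions, with a median of 0.22. Among them were Mfap5 at 0.92, Fbln2 at 0.70 and Dpt at 0.56. On day 3 7 were higher and 2 lower, with a median of 0.08. In NR-S1, SCCVII, NFSa and #8520 the day 3 median was 0.01, 0.02, 0.02 and 0.36, where Dcn rose by 2.44, 1.90, 1.71 and 0.97. The median of the 7 genes in these tumours was 0.42, 0.27, -0.06 and 1.18, with Fmod and Prelp included. Tendon and cartilage markers had 5 of 12 higher and 4 lower on day 3. Macrophage markers had 11 of 13 higher and 1 lower, with a median of 0.87 and Aif1 at 1.82. Endothelial markers had 10 of 15 higher and 0 lower (median 0.30), adipocyte markers 3 of 5 and 0 (0.44), pericyte and smooth muscle markers 4 of 10 and 4 (0.02), and epithelial markers 2 of 17 and 8 (-0.28). The part of these cell types in the responses of the 7 genes was not tested.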

How the data were processed

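Total RNA of each tumour was hybridised in a single colour (Cy5) by the CodeLink protocol, per the labels. The deposited values are intensities on a linear scale for 36227 probes. The scanner software and how background and scaling were handled are not given in the sources available for this work. Judged by the values, arrays were scaled to a median near 1, 0.751% of values were missing and 0.149% were not above 0. The log2 values were computed here from the deposited intensities, values not above 0 were set to missing, and no further normalization was applied. Probes were named by the platform annotation (21615 with 1 symbol, 681 with several, 13931 with none), with symbols updated by Entrez number to RefSeq gene records (21487 matched), and the brightest probe of each of 18069 genes was kept (3002 genes had several).

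Genes whose mean log2 value was among the lowest 25%, or those measured on under 80% of arrays were left out. A limma cell-means model of 44 groups (44 residual degrees of freedom, prior 7.3) gave each difference, two-sided, with Benjamini-Hochberg adjustment over the 13465 genes tested. On data simulated for the carbon-ion day 3 comparison over 13465 genes, 86% of 50 genes changed 1.25-fold, 98% of 50 changed 1.5-fold and 100% of 50 changed 2-fold were called. With 2 arrays per group, the number of arrays limits the precision.

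The 7 genes and all gene lists were chosen with earlier results of these data known. The counts averaged over the tumours cover all 7 genes, and single values are given for some of the genes only. From each list at most the 3 called genes with the largest difference are named, and the genes most like a member are the 5 with the highest correlation over the 44 group means. The rule that gives no response of Fmod and Prelp in SCCVII and #8520 (untreated mean under 0.378) was chosen after the data were seen, as were the alternatives with low values raised to that floor and with pooled untreated arrays for carbon minus gamma in single tumours. Replicate numbers were not used to pair the samples in the main model. Deviations of arrays with the same number correlated between -0.198 and 0.393, with a median of 0.161 in the gamma arm of NFSa. The gamma groups of day 1 carry other numbers and were not in this check. The range does not show that pairing was absent. R 4.3.3, limma 3.58.1, data.table (version 1.17.8), Python 3.11.15, pandas 2.3.3 and matplotlib 3.10.9 were used.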

Additional observations from a re-analysis of the deposited data

Results flagged for a closer look

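The carbon-ion response differed between the 4 tumours, by a moderated F test with 3 contrasts and adjusted p over all genes, in 6 of the 7 genes at 6 h, 5 on day 1 and 7 on day 3, where 45.0%, 58.3% and 61.9% of all genes passed. At 6 h the adjusted p was 3.4e-10 for Dcn, 5.17e-07 for Lum, 0.00392 for Bgn, 0.000123 for Ogn, 2.15e-07 for Prelp and 0.00133 for Aspn. The Dcn response of NR-S1 stood apart there, at 1.32 against values between -0.16 and 0.18 in the other 3 tumours. On day 1 it was 0.00296 for Dcn, 3.18e-05 for Bgn, 1.35e-09 for Ogn, 6.43e-15 for Prelp and 3.44e-05 for Aspn. Ogn was then higher in NR-S1, NFSa and #8520, by 1.34, 0.79 and 0.65, and lower in SCCVII, at -0.67. On day 3 the adjusted p was 8.92e-10 for Dcn, 2.27e-06 for Lum, 2.72e-05 for Fmod, 0.00165 for Bgn, 9.61e-11 for Ogn, 7.94e-09 for Prelp and 2.89e-12 for Aspn. Aspn was then higher in #8520 by 1.70 and lower in NR-S1 and NFSa, at -0.80 and -0.85. The tests of Fmod and Prelp include SCCVII and #8520, where both genes lie near the low end of the scale.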

How the results depend on the processing

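The spread used decides most of the calls. With each tumour as 1 replicate the number of the 7 genes called fell from 3, 5 and 4 to 0, 1 and 2 for carbon ions at 6 h, day 1 and day 3, and to 0 for every gamma-ray response (from 4, 4 and 5 at 30 Gy and 5, 6 and 7 at 50 Gy), for carbon minus gamma (4, 5 and 3), for 50 minus 30 Gy (4, 3 and 5), for day 1 minus 6 h (6), for day 3 minus day 1 (6) and for the arms (3), with 2 of 4 left for day 3 minus 6 h. Between 0.00% and 12.7% of all genes passed then. At an unadjusted p under 0.05 limma had 1, 3 and 3 of the 7 for carbon ions, 2, 2 and 0 for 30 Gy and 1, 3 and 3 for 50 Gy of gamma rays, 3, 3 and 1 for carbon minus gamma, 2, 3 and 1 for the doses, 3, 1 and 3 for day 1 minus 6 h, day 3 minus day 1 and day 3 minus 6 h, and 1 for the arms.

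Leaving out whole tumours gave 3 called genes without SCCVII for day 3 minus day 1 (6 with all), 3 without NR-S1 for carbon minus gamma on day 1 (5), 5 without NFSa on day 3 (3), 7 without NFSa for 30 Gy at 6 h (4), 5 without NFSa for 50 minus 30 Gy on day 1 (3) and 6 without NFSa for the arms (3). Carbon minus gamma on day 3 had 5 with low values at the floor and 5 with the untreated arrays of both arms. With the dimmest 50% of genes left out, 2 were called for 30 Gy on day 1, 1 and 3 for 50 minus 30 Gy on days 1 and 3, and 1 for the arms. For 50 minus 30 Gy on day 1, 6 were called after quantile normalization, 6 with arrays centred and 5 with only the arrays compared, and on day 3 3 without the arrays whose dim probes read brighter. The arms had 5 with only the arrays compared.

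Leaving out 1 array in turn gave 2 to 3, 5 to 5 and 4 to 4 called genes for carbon ions, 3 to 5, 3 to 4 and 4 to 5 for 30 Gy, 5 to 6, 5 to 7 and 7 to 7 for 50 Gy, 3 to 5, 4 to 6 and 3 to 3 for carbon minus gamma, 3 to 4, 3 to 4 and 5 to 5 for the doses, 5 to 6, 5 to 6 and 3 to 4 for day 1 minus 6 h, day 3 minus day 1 and day 3 minus 6 h, 4 to 6, 4 to 6 and 7 to 7 for the F tests, 6 to 6 for carcinomas minus fibrosarcomas, 3 to 4 for the arms, 36 to 39 for the untreated pairs and 149 to 159 for the single-tumour responses.

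Directions turned as follows. With the untreated arrays of both arms, Aspn in NFSa after 50 Gy on day 1 was -0.42, Bgn in NFSa after 50 Gy at 6 h -0.30, Dcn in SCCVII after carbon ions at 6 h -0.31, mean Dcn after 30 Gy on day 1 0.15 and Prelp in NFSa after 30 Gy at 6 h -0.55. Without #8520, Aspn day 3 minus day 1 was -0.26, Bgn after 50 Gy on day 1 -0.014, Ogn on day 3 after 30 and 50 Gy -0.17 and -0.23, and Ogn 50 minus 30 Gy at 6 h -0.047. Without NFSa, Aspn after carbon ions on day 3 was 0.26, Lum after 30 Gy at 6 h 0.23 and Lum 50 minus 30 Gy on day 1 -0.19. Without SCCVII, Aspn on day 3 after 30 and 50 Gy was 0.20 and 0.15, and Lum between the arms 0.32. Without NR-S1, Lum day 3 minus day 1 was 0.00026 and Lum after 30 Gy at 6 h 0.23. Without the arrays whose dim probes read brighter, Bgn after 50 Gy on days 1 and 3 was -0.087 and -0.015, and Bgn 50 minus 30 Gy on day 1 -0.31. After quantile normalization Bgn in #8520 after carbon ions on day 1 was -0.013. Carbon minus gamma in single tumours, recomputed with the untreated arrays of both arms as a choice made after the data were seen, turned in SCCVII for Dcn (-0.54, -0.42 and -0.14 at 6 h, day 1 and day 3), Bgn (-0.49 and -0.42 at 6 h and day 1), Aspn (-0.53 and -0.093) and Lum on day 1 (1.19), in NFSa for Bgn at 6 h and day 3 (0.65 and 0.00090) and Prelp on days 1 and 3 (0.39 and 0.41), and in #8520 for Ogn on day 3 (0.46). The causes were not tested. The replicate block kept 95 of 95 results averaged over tumours and moved no count by over 1.5 times; in single tumours 164 of 168 kept their call, 3 lost it and 1 gained one.

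The dim end of the scale limits Fmod and Prelp: their 4-tumour values after 50 Gy on days 1 and 3, 0.56 and 0.38 for Fmod and 0.93 and 1.25 for Prelp, were -0.33 and -0.22 and -0.42 and 0.25 after quantile normalization, and -0.63 and -1.21 and 0.55 and 1.04 without the arrays whose dim probes read brighter.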

Other observations

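Genes whose group means followed those of a member were looked up over the 44 group means, as a description that shares arrays, tumours and scaling. Bgn was closest to Chst12, a chondroitin sulfotransferase (Pearson r = 0.965), Mxra8 (0.955), Dnm1 (0.952), Serpinf1 and Scara3 (0.950 each). Dcn was closest to Arid3b (0.899), Sh3kbp1 (0.894), Loxl3, a lysyl oxidase-like enzyme (0.887), Fbln5, a fibulin of elastic fibres (0.885), and Gramd1b (0.880). Lum was closest to Fbln7 (0.889), Rarb (0.882), Mmp3, stromelysin 1 (0.871), Abi3bp (0.865) and 9530091C08Rik (0.856). Aspn was closest to Olfml3 (0.813), Col1a1 (0.787), Mllt3 (0.760), Col1a2 (0.755) and Gtf3c6 (0.755). Col1a1 and Col1a2 are the chains of type I collagen. Ogn was closest to Tmlhe (0.922), Pttg1ip (0.921), Bdh2 (0.917), Steap3 (0.908) and Hao1 (0.905). Prelp was closest to Bhlhb9 (0.920), Entpd2 (0.906), Slit3 (0.904), Arxes2 (0.884) and Srpx (0.879). Fmod was closest to Rbm20 (0.860), Kbtbd13 (0.830), Serpinb1a (0.766), Fxyd6 (0.766) and Ephx2 (0.756). Between members r was 0.777 for Dcn and Bgn, 0.564 for Dcn and Lum, 0.604 for Fmod and Prelp and -0.613 for Fmod and Ogn.

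Skeletal muscle markers also varied between groups. In SCCVII their median response was 3.40 on day 1 after 30 Gy of gamma rays and 3.47 on day 3 after 50 Gy, with 23 of 23 higher in both, where Dcn had 0.29 and 0.78 and Lum 1.79 and 2.09. The untreated SCCVII arrays already differed between the arms, with 22 of 23 markers lower in the gamma arm and a median of -3.66. In #8520 the median response was -2.46 on day 1 after 30 Gy, with 22 of 23 lower, where Dcn had 0.23 and Lum 0.35. Over the 36 single-tumour responses, which share untreated arrays and scaling, the muscle median had a Pearson r of 0.606 with Fmod, 0.449 with Lum, 0.0913 with Prelp, 0.0696 with Dcn, -0.145 with Bgn, -0.402 with Ogn and -0.431 with Aspn, given as a description. For the fibroblast median r was 0.65 with Lum, 0.63 with Bgn, 0.513 with Dcn, 0.416 with Aspn, 0.375 with Fmod, 0.369 with Prelp and 0.296 with Ogn.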
